A study of Mus musculus with 20 samples.

Results

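The genes described here are 8 genes for sensing foreign or misplaced molecules inside the cell, 7 sensors and the adaptor MAVS, called the sensors below: Ddx58 (also called Rigi, encoding RIG-I), Ifih1 (MDA5), Dhx58 (LGP2), Mavs, Zbp1, Aim2, Nod1 and Nod2. They were chosen by name and are 8 of the 53379 gene identifiers in the deposited tables. Expression was measured by RNA-seq in 20 libraries of mouse Lin- haematopoietic progenitors, 4 in each of 5 groups. Of these groups 3 lacked the -77 enhancer of Gata2 and received a retroviral (MSCV) vector coding for GATA2 R307W, for GATA2 T354M or for GATA2, and are called R307W, T354M and GATA2 cells. The fourth lacked the same enhancer and received a control vector (null control cells), and the fifth was wild type with a control vector (wild-type control cells). GATA2 is a zinc finger transcription factor of blood progenitors, and the enhancer is a distal element that drives its gene in them. All groups were cultured for 3 days, and for the GATA2 group and both control groups the labels add infection straight after isolation and a medium with 20% serum and conditioned media as sources of IL3 and SCF. The labels give fetal liver, E14.5 (embryonic day) and the strain C57BL/6J for the GATA2 group and both control groups, and do not state them for the R307W and T354M groups, so what a variant does and how its cells were obtained or handled cannot be told apart. The vector, and not the enhancer, drives GATA2 in the 3 vector groups, and reads of the vector and of the gene cannot be separated. The labels do not say whether the replicates came from separate animals or cultures, so p-values measure the spread between these libraries only.

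RIG-I and MDA5 are helicases that bind viral double-stranded RNA and signal through MAVS on the mitochondrial surface to the kinase TBK1 and the transcription factors IRF3 and IRF7, which switch on interferon genes. ZBP1 binds Z-form nucleic acid and engages RIPK3 in cell death, and AIM2 binds cytosolic DNA and recruits ASC to activate caspase 1. NOD1 and NOD2 bind fragments of bacterial peptidoglycan and signal through RIPK2 to NF-kB. Many of these genes are themselves induced by interferon, and myeloid cells are known to express them.

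Gata2, the targeted gene, had 49.99, 40.0, 39.5 and 89.5 CPM (reads scaled to the TMM-adjusted library size) in R307W cells and 63.5, 33.6, 37.2 and 73.8 CPM in T354M cells. It had 71.0, 76.7, 42.9 and 132 CPM in GATA2 cells, 5.53, 5.24, 4.72 and 7.67 CPM in null control cells and 53.0, 31.5, 41.8 and 50.9 CPM in wild-type control cells. The null control libraries thus lay below all others, and replicate 4 was the highest in each vector group. Replicate 4 of the vector groups also stood apart in the sensors, as described below, and the counts of sensors and the calls that depend on it are therefore given with and without replicate 4 of all groups. Library totals ran from 22330475 to 33245876 expected counts. The progenitor markers Kit, Cd34, Myb and Spi1 were detected in every group, and 6 markers of T, B and NK cells summed to at most 1.01 TPM (the level per transcript length) in any library. RNA typical of mature and other cells was also present, with 5 hepatocyte markers summing to 51.8 to 1177 TPM and 6 neutrophil markers to 1521 to 15520 TPM over the 20 libraries. The sum of 7 erythroid markers was 116.7 to 381.1 TPM in R307W, 44.4 to 86.7 TPM in T354M, 79.0 to 192.1 TPM in GATA2 and 77.2 to 373.2 TPM in null control cells, against 1500 to 2776 TPM in wild-type control cells.

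All 8 sensors passed the filter on low counts. In null control cells against wild-type control cells, 7 of the 8 rose and none fell, where 20.1% of the 15835 genes tested rose and 23.2% fell (edgeR quasi-likelihood test, Benjamini-Hochberg adjusted p under 0.05). The exception was the adaptor Mavs. The median log2 difference of the 8 sensors was 1.58, against -0.05 over all genes tested. For each of the 7 genes every null control library lay above every wild-type control library. The share of all genes with such separation was not counted, so it is not read as particular to the sensors. No call of the 7 genes ended when any single library was left out. These are bulk libraries, in which fewer cells of a type and less RNA per cell cannot be told apart.

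Part of the set was lower with each vector than in null control cells, and no sensor rose. The 3 comparisons share the null control libraries and are therefore not independent. In R307W cells 3 sensors fell (Ddx58, Ifih1 and Dhx58), where 7.48% of all genes fell (17.5% in either direction). In T354M cells 6 fell (all but Aim2 and Nod1), where 8.11% of all genes fell and 9.26% rose (17.4% in either direction). In GATA2 cells 5 fell (Ddx58, Ifih1, Dhx58, Nod1 and Nod2), where 8.23% of all genes fell (19.2% in either direction). In a fit of all 20 libraries blocked by replicate number, Zbp1 also fell in GATA2 cells (adjusted p = 0.00371), where the numbers were taken to pair the libraries. The same fit also called Mavs, Zbp1 and Nod2 lower in R307W cells and Nod1 lower in T354M cells, where the numbers are not taken to pair them. The median log2 difference of the 8 sensors was -0.81 in R307W cells, -1.02 in T354M cells and -0.91 in GATA2 cells, against 0.02, 0.02 and 0.00 over all genes tested. Without replicate 4, 3 sensors fell in R307W cells, 5 in T354M cells and 6 in GATA2 cells, where 3.17%, 4.58% and 4.77% of all genes fell. Between the control groups 7 rose without replicate 4, where 17.4% of all genes rose.

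**Figure D1:**
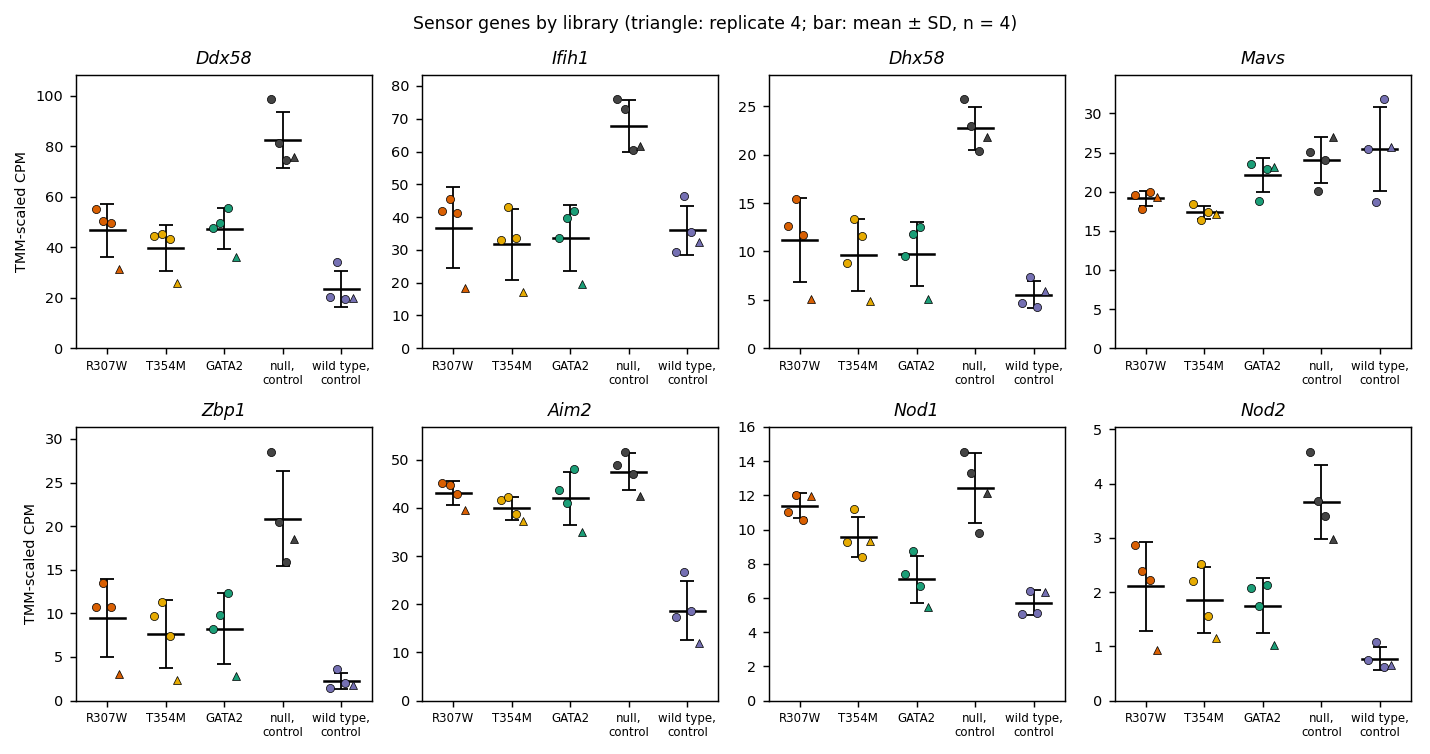
TMM-scaled CPM (vertical axis, linear, starting at 0) of the 8 sensors in each library of the 5 groups (horizontal axis), with replicate 4 as a triangle and the mean ± SD of 4 libraries as bars. For all genes but Mavs the null control libraries lie above the wild-type control libraries, and in the vector groups the triangle is the lowest point for Ddx58, Ifih1, Dhx58, Zbp1, Aim2 and Nod2. For Aim2 it is also the lowest point in both control groups, and for Nod2 in the null control group.

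Relative to wild-type control cells the vector groups stayed higher for part of the set. Of the 8 sensors, 6 rose and 1 fell in R307W cells, where 33.5% of all genes were called (16.5% rose and 17.0% fell). In T354M cells 5 rose and 1 fell, where 37.0% of all genes were called (18.6% rose and 18.4% fell). In GATA2 cells 4 rose and none fell, where 30.7% of all genes were called (14.7% rose). The gene that fell was Mavs in both variant groups. Ddx58, Zbp1, Aim2 and Nod2 rose in all 3 groups, with folds between 1.70 (Ddx58 in T354M cells) and 4.27 (Zbp1 in R307W cells). Without replicate 4, 6 rose and none fell in R307W cells, 6 rose and 1 fell in T354M cells and 5 rose and none fell in GATA2 cells, where 15.4%, 17.2% and 13.7% of all genes rose. These comparisons share the wild-type control libraries.

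Between the vectors few differences passed the test. R307W cells had 1 sensor higher than in GATA2 cells, Nod1, where 1.73% of all genes were called (0.587% rose and 1.14% fell). No sensor was called between T354M and GATA2 cells, where 3.86% of all genes rose and 6.14% fell. At an unadjusted p under 0.05 there were 2 in edgeR (Mavs and Nod1), DESeq2 called 0, and the fit blocked by replicate number called these 2. No sensor was called between R307W and T354M cells, where 2.30% of all genes rose and 1.19% fell, with 0 at an unadjusted p under 0.05 in edgeR and 0 by DESeq2. R307W libraries were above the same-numbered T354M libraries in all 4 pairs for 7 of the 8 sensors, the exception being Nod2 (2 of 4). The blocked fit, which uses these pairs, called none of them (lowest adjusted p = 0.299, Nod1). The share of all genes with this order was not counted. Several sensors also vary together over the libraries, so these are not 7 separate results. The differences between R307W and T354M cells ran from 0.11 (SE 0.16, Aim2) to 0.30 (SE 0.47, Zbp1) on the log2 scale. A p that misses the threshold does not show that the groups were alike.

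**Figure D2:**
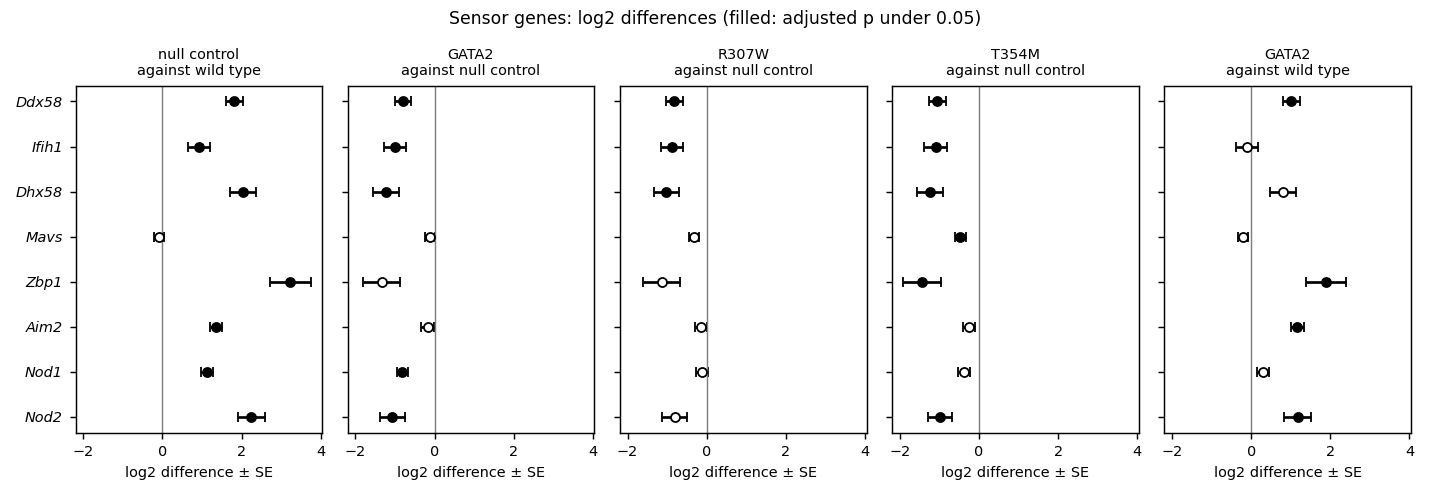
Log2 difference ± SE (horizontal axis) of each sensor (vertical axis) in 5 comparisons, with filled points at an adjusted p under 0.05. The 7 called sensors lie right of 0 in null control against wild-type control cells, and in the 3 vector groups against null control cells no sensor lies right of 0.

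Ddx58, the sensor of RNA ends that carry a 5′ triphosphate, had an intermediate level in all vector groups. The gene (ENSMUSG00000040296.15) lies at chr4:40203773-40239828 on the minus strand (GRCm38, GENCODE M21). It had 55.3, 50.6, 49.7 and 31.6 CPM in R307W cells, 44.6, 45.1, 43.4 and 26.0 CPM in T354M cells, and 47.8, 49.8, 55.6 and 36.1 CPM in GATA2 cells. It had 98.6, 81.1, 74.8 and 75.8 CPM in null control cells and 20.1, 34.2, 19.7 and 19.8 CPM in wild-type control cells. All 12 vector libraries lay below all null control libraries, and replicate 4 of the R307W and T354M groups lay within the wild-type control range. Ddx58 rose 3.53-fold in null control cells against wild-type control cells (log2 1.82, SE 0.22, adjusted p = 2.1e-06). It fell relative to null control cells by 0.82 on the log2 scale in R307W cells (SE 0.21, adjusted p = 0.0121), by 1.05 in T354M cells (SE 0.21, adjusted p = 0.00211) and by 0.80 in GATA2 cells (SE 0.21, adjusted p = 0.0123). It was also above wild-type control cells in each of them, by log2 1.00 (adjusted p = 0.00128), 0.76 (adjusted p = 0.00821) and 1.01 (adjusted p = 0.00123) for R307W, T354M and GATA2 cells. The order was thus null control, then the 3 vector groups, then wild-type control. Among the vector groups T354M was the lowest in all 4 same-numbered libraries, and no difference was called, with T354M against GATA2 cells at -0.25 (SE 0.21, adjusted p = 0.586, and 0.308 blocked by replicate number) and R307W against T354M cells at 0.23 (SE 0.21, adjusted p = 0.85, and 0.552 blocked). The call against null control cells ended without replicate 4 of the R307W group (adjusted p = 0.054) and without replicate 4 of the GATA2 group (adjusted p = 0.0566). With replicate 4 of all groups left out the adjusted p was 0.0161 for R307W, 0.00269 for T354M and 0.0101 for GATA2. In limma on log2(TPM + 1) it was 0.0857 for R307W and 0.0513 for GATA2.

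Ifih1, which binds long double-stranded RNA, did not stay above wild type in any vector group. The gene (ENSMUSG00000026896.14) lies at chr2:62595798-62646255 on the minus strand. It had 41.9, 45.4, 41.4 and 18.5 CPM in R307W cells, 33, 43.0, 33.6 and 17.0 CPM in T354M cells, and 33.6, 39.6, 41.9 and 19.5 CPM in GATA2 cells. It had 75.9, 73.0, 60.5 and 61.5 CPM in null control cells and 29.5, 46.5, 35.4 and 32.4 CPM in wild-type control cells. All vector libraries lay below all null control libraries and overlapped the wild-type control libraries, except that replicate 4 of each vector group was below them. Ifih1 rose 1.89-fold in null control cells (log2 0.92, SE 0.28, adjusted p = 0.0131 against wild-type control cells), the smallest rise of the 7 called sensors. Relative to null control cells it fell by 0.88 on the log2 scale in R307W cells (SE 0.28, adjusted p = 0.0368), by 1.1 in T354M cells (SE 0.28, adjusted p = 0.0123) and by 1.01 in GATA2 cells (SE 0.28, adjusted p = 0.0179). Against wild-type control cells the differences were 0.03 (SE 0.28) in R307W cells, -0.18 (SE 0.28) in T354M cells and -0.10 (SE 0.28) in GATA2 cells, none called. The sign of each of the 3 changed when some single libraries were left out, and in GATA2 cells also without replicate 4 of all groups (0.05). The fall in R307W cells lost its call in limma on log2(TPM + 1) (adjusted p = 0.0832) and when any of 7 of the 8 libraries was left out (all null control libraries and R307W replicates 1, 3 and 4, adjusted p up to 0.128). In GATA2 cells the call ended without GATA2 replicate 4 (adjusted p = 0.0725). With replicate 4 of all groups left out all 3 falls were called, with adjusted p = 0.0103 for R307W, 0.00152 for T354M and 0.0021 for GATA2.

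Dhx58 encodes a helicase of the same family that lacks the signalling domains of the other members and modulates them. The gene (ENSMUSG00000017830.15) lies at chr11:100694884-100704271 on the minus strand, and its exons overlap those of the antisense gene Dhx58os over 141 bases. Whether strand was used in counting is not given in the sources used here, so reads of both genes cannot be told apart over that stretch. It had 12.6, 15.4, 11.7 and 5.10 CPM in R307W cells, 8.77, 13.3, 11.7 and 4.90 CPM in T354M cells, and 9.53, 11.8, 12.6 and 5.11 CPM in GATA2 cells. It had 25.7, 23.0, 20.4 and 21.8 CPM in null control cells and 4.65, 7.36, 4.27 and 5.88 CPM in wild-type control cells. Replicates 1 to 3 of the vector groups lay between both control groups, and replicate 4 lay within the wild-type control range. Dhx58 rose 4.10-fold in null control cells (log2 2.04, SE 0.34, adjusted p = 7.09e-05 against wild-type control cells). It fell relative to null control cells by 1.02 on the log2 scale in R307W cells (SE 0.32, adjusted p = 0.0346), by 1.24 in T354M cells (SE 0.32, adjusted p = 0.0134) and by 1.22 in GATA2 cells (SE 0.32, adjusted p = 0.0131). The call ended without T354M replicate 4 (adjusted p = 0.0511), without GATA2 replicate 4 (adjusted p = 0.0531), and in R307W cells without any of 7 of the 8 libraries (all null control libraries and R307W replicates 1, 3 and 4, adjusted p up to 0.118). With replicate 4 of all groups left out the adjusted p was 0.0217 for R307W, 0.00457 for T354M and 0.00371 for GATA2. Against wild-type control cells Dhx58 was higher in R307W cells (log2 1.01, SE 0.33, adjusted p = 0.0237). That call ended in limma on log2(TPM + 1) (adjusted p = 0.0902) and without wild-type control replicate 1 (0.0615) or 3 (0.0641) or R307W replicate 1 (0.0514) or 2 (0.0778). The same differences in T354M cells (0.80, SE 0.33, adjusted p = 0.0654) and GATA2 cells (0.81, SE 0.33, adjusted p = 0.0701) were not called, and without replicate 4 they were (log2 1.05, adjusted p = 0.00132 for T354M and log2 1.06, adjusted p = 0.00165 for GATA2).

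The windows around the annotated starts of the RNA helicase genes are shown because interferon-induced genes often carry a response element there. The windows are from RefSeq (GRCm38.p6), 250 bases before to 50 after the start, written 5′ to 3′ along the gene, and capitals mark matches to the interferon-stimulated response element core searched on both strands as GAAA, any 2 bases and GAAA (first form) or GAAA, any 1 base and GAAA (second form). The window of Aim2, which starts inside the GENCODE gene span, is shown beside them as one with no match.
Ddx58, chr4:40239776-40240075, minus strand: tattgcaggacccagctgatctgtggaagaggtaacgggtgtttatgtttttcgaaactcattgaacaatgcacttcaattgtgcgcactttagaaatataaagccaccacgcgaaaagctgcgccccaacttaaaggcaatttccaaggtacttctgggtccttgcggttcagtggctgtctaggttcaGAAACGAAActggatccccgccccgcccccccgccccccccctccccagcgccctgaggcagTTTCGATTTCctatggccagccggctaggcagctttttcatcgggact
Ifih1, chr2:62646206-62646505, minus strand: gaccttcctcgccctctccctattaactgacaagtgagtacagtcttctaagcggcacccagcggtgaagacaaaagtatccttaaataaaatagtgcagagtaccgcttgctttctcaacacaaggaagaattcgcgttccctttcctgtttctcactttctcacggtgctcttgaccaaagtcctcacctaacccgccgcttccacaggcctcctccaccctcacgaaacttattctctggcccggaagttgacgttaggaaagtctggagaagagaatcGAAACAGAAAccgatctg
Aim2, chr1:173420354-173420653, plus strand: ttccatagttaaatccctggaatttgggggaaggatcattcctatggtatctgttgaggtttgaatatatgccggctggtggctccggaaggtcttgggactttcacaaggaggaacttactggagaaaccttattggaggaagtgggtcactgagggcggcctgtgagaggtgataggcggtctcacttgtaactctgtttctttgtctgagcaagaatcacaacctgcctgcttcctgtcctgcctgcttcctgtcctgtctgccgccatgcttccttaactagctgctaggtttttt
Ddx58 held GAAACGAAA at position -60 from its start and, on the opposite strand, TTTCGATTTC at position 2. Ifih1 held GAAACAGAAA at position 32. The first form was present in 3.44% and the second in 3.17% of 32851 windows of the same length, with those of a chromosome that holds no sensor left out. Of the 8 sensors 6 had a window, with 7 windows in all, and neither form was found in those of Mavs, Aim2, Nod1 and Nod2. The gamma-activated site TTCNNNGAA, present in 8.3% of these 32851 windows, was found in 1 of the 2 windows of Nod1. The form AGATAA of the GATA motif, present in 11.18%, was found in none of the 7. Other forms of the GATA motif were not searched, so the windows are not shown to lack one. A match is a description of these letters and no evidence of binding, and a window without one says nothing of the factor.

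Mavs, the mitochondrial adaptor of RIG-I and MDA5, was not called between the control groups and was lower in some comparisons of the variants. The gene (ENSMUSG00000037523.13) lies at chr2:131234063-131248025 on the plus strand. It had 19.5, 17.8, 19.9 and 19.3 CPM in R307W cells, 18.5, 16.4, 17.4 and 17.1 CPM in T354M cells, and 23.5, 18.8, 22.9 and 23.1 CPM in GATA2 cells. It had 25.1, 20.0, 24.0 and 27.0 CPM in null control cells and 25.5, 18.7, 31.8 and 25.7 CPM in wild-type control cells. Both control groups overlapped, and the T354M libraries lay below every library of the GATA2 and both control groups. The difference of null control from wild-type control cells was -0.08 (SE 0.13, adjusted p = 0.637), and its sign changed in limma on log2(TPM + 1) (0.03). In T354M cells Mavs fell by 0.47 on the log2 scale relative to null control cells (SE 0.13, adjusted p = 0.0165). That call ended without null control replicate 4 (adjusted p = 0.0622), without replicate 4 of all groups (0.134) and in limma on log2(TPM + 1) (0.0755). Relative to wild-type control cells it fell by 0.55 in T354M cells (SE 0.13, adjusted p = 0.00207, 0.0519 in limma on log2(TPM + 1)) and by 0.41 in R307W cells (SE 0.13, adjusted p = 0.0174). The call in R307W cells ended without wild-type control replicate 3 (a fall of 0.27, adjusted p = 0.103), without R307W replicate 2 (0.0658), without replicate 4 of all groups (0.0669), among its 8 libraries alone (0.0797), with no filter on low counts (0.076) and in limma on log2(TPM + 1) (0.181). In R307W cells the difference from null control cells was -0.33 (SE 0.13, adjusted p = 0.0799) with all libraries below those of the null control, and it was called by DESeq2 (adjusted p = 0.0397), with the 8 libraries alone (0.0431) and without null control replicate 2 (0.0454). The fit blocked by replicate number called it too (-0.32, adjusted p = 0.018), although the numbers are not taken to pair the libraries of that comparison. In GATA2 cells the differences were -0.12 (SE 0.13) from null control and -0.20 (SE 0.13) from wild-type control cells, neither called. Between T354M and GATA2 cells the difference was -0.35 (SE 0.13, adjusted p = 0.0998), and in a fit blocked by replicate number, which pairs these libraries, it was -0.34 (adjusted p = 0.022). Without GATA2 replicate 2 its adjusted p was 0.049.

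Zbp1, the sensor of Z-form nucleic acid, had the largest fold of the 8 genes between the control groups. The gene (ENSMUSG00000027514.14) lies at chr2:173206612-173218923 on the minus strand. It had 10.7, 13.4, 10.8 and 3.05 CPM in R307W cells, 9.74, 11.3, 7.39 and 2.35 CPM in T354M cells, and 8.17, 9.82, 12.3 and 2.78 CPM in GATA2 cells. It had 28.5, 20.4, 15.9 and 18.5 CPM in null control cells and 1.44, 3.58, 2.06 and 1.84 CPM in wild-type control cells. Replicates 1 to 3 of every vector group lay between both control groups without overlap, and replicate 4 of every vector group lay within the wild-type control range. Zbp1 was 9.40-fold higher in null control than in wild-type control cells (log2 3.23, SE 0.52, adjusted p = 5.62e-05). Relative to null control cells it fell by 1.44 on the log2 scale in T354M cells (SE 0.47, adjusted p = 0.0416), a call that ended without any of 7 of the 8 libraries (all null control libraries and T354M replicates 1, 3 and 4, adjusted p up to 0.122). The differences of -1.14 in R307W cells (SE 0.47, adjusted p = 0.0997) and -1.34 in GATA2 cells (SE 0.47, adjusted p = 0.053) were not called, although all libraries lay below those of the null control. In the fit blocked by replicate number, the difference was -1.35 in R307W cells (adjusted p = 0.00826) and -1.66 in T354M cells (adjusted p = 0.00241). The numbers are not taken to pair the libraries of these 2 groups with the null control. Blocked in the same way, the difference in GATA2 cells was -1.52 (adjusted p = 0.00371), and without replicate 4 of all groups it was -1.10 (adjusted p = 0.0148). Without replicate 4 it was -1.19 in T354M cells (adjusted p = 0.0115) and -0.89 in R307W cells (adjusted p = 0.0506). Zbp1 was, against wild-type control cells, 4.27-fold higher in R307W cells (log2 2.09, SE 0.51, adjusted p = 0.00355), 3.46-fold higher in T354M cells (log2 1.79, SE 0.51, adjusted p = 0.00919) and 3.72-fold higher in GATA2 cells (log2 1.90, SE 0.51, adjusted p = 0.00786).

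Aim2, the DNA sensor of the inflammasome, was higher in null control than in wild-type control cells and was not called lower with any vector in the 20-library fit. The gene (ENSMUSG00000037860.15) lies at chr1:173350879-173466040 on the plus strand, and its introns overlap Cadm3 with no shared exonic base. It had 45.2, 44.7, 43.0 and 39.5 CPM in R307W cells, 41.7, 42.2, 38.7 and 37.2 CPM in T354M cells, and 43.8, 41.1, 48.0 and 35.0 CPM in GATA2 cells. It had 49.0, 51.7, 47.1 and 42.5 CPM in null control cells and 17.4, 26.8, 18.7 and 11.9 CPM in wild-type control cells. The wild-type control libraries lay below all 16 libraries of enhancer-null cells. Aim2 was 2.55-fold higher in null control than in wild-type control cells (log2 1.35, SE 0.16, adjusted p = 2.26e-06). Its differences from null control cells were -0.14 (SE 0.16, adjusted p = 0.584) in R307W cells, -0.25 (SE 0.16, adjusted p = 0.304) in T354M cells and -0.18 (SE 0.16, adjusted p = 0.491) in GATA2 cells. In T354M cells all 4 libraries were below those of the null control, and with the 8 libraries alone the adjusted p was 0.0419. With a replicate block in the 16 enhancer-null libraries, a setting chosen after seeing the data, Aim2 was called lower in 2 vector groups. The difference was -0.29 in T354M cells (adjusted p = 0.00447) and -0.20 in GATA2 cells (adjusted p = 0.0315), and R307W cells were not called (adjusted p = 0.0636). Against wild-type control cells it was 2.31-fold higher in R307W cells (adjusted p = 1.21e-05), 2.14-fold in T354M cells (adjusted p = 2.5e-05) and 2.25-fold in GATA2 cells (adjusted p = 1.95e-05). Per length Aim2 was the most abundant of the 8 transcripts in each group, with a mean of 39.6 TPM in R307W, 36.2 TPM in T354M, 35.1 TPM in GATA2, 40.3 TPM in null control and 15.5 TPM in wild-type control cells.

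Nod1, which senses peptidoglycan fragments mainly of Gram-negative bacteria, was the 1 sensor called between vectors. The gene (ENSMUSG00000038058.14) lies at chr6:54923949-54972612 on the minus strand. It had 11.1, 12, 10.6 and 12 CPM in R307W cells, 9.29, 11.2, 8.40 and 9.31 CPM in T354M cells, and 7.41, 8.75, 6.67 and 5.48 CPM in GATA2 cells. It had 14.6, 13.3, 9.79 and 12.1 CPM in null control cells and 5.09, 6.38, 5.12 and 6.32 CPM in wild-type control cells. The R307W libraries overlapped the null control libraries and lay above all GATA2 libraries, while the GATA2 libraries overlapped those of the wild-type control. Nod1 rose 2.17-fold in null control cells (log2 1.12, SE 0.15, adjusted p = 7.87e-06 against wild-type control cells). In GATA2 cells it fell by 0.81 on the log2 scale relative to null control cells (SE 0.15, adjusted p = 0.000809), a call that no single library ended and that limma on log2(TPM + 1) did not make (-0.47, adjusted p = 0.0845). It differed from null control cells by -0.13 in R307W cells (SE 0.15, adjusted p = 0.603) and by -0.38 in T354M cells (SE 0.15, adjusted p = 0.0793), neither called, although DESeq2 called the difference in T354M cells (adjusted p = 0.0344). The fit blocked by replicate number called that difference too (adjusted p = 0.0294), although the numbers are not taken to pair the libraries of that comparison. The direct difference of R307W from GATA2 cells was 0.69 (SE 0.15, adjusted p = 0.0175), and 0.70 blocked by replicate number (adjusted p = 0.00374). It was not called without GATA2 replicate 1 (0.70, adjusted p = 0.0504), GATA2 replicate 4 (0.58, adjusted p = 0.0936), R307W replicate 2 (0.65, adjusted p = 0.0698) or replicate 4 of all groups (0.56, adjusted p = 0.213), nor with the 8 libraries alone (0.67, adjusted p = 0.102) or in limma on log2(TPM + 1) (0.46, adjusted p = 0.385). T354M cells differed from GATA2 cells by 0.43 (SE 0.15, adjusted p = 0.0754), and by 0.43 in the fit blocked by replicate number (adjusted p = 0.0248). Without GATA2 replicate 2 the adjusted p was 0.0355. Nod1 exceeded wild-type control cells in R307W cells (log2 0.99, SE 0.15, adjusted p = 4.41e-05) and T354M cells (log2 0.74, SE 0.15, adjusted p = 0.000681), and the difference of 0.30 in GATA2 cells was not called (SE 0.15, adjusted p = 0.133, and 0.0443 without GATA2 replicate 4).

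Nod2, which senses muramyl dipeptide, was the least abundant of the 8 per length, with a mean of 0.493 TPM in R307W, 0.468 TPM in T354M, 0.438 TPM in GATA2, 0.873 TPM in null control and 0.165 TPM in wild-type control cells. The gene (ENSMUSG00000055994.15) lies at chr8:88647315-88688474 on the plus strand. It had 69, 62, 54 and 31 reads in R307W cells, 63, 65, 43 and 36 reads in T354M cells and 58, 46, 57 and 30 reads in GATA2 cells. It had 122, 88, 78 and 84 reads in null control cells and 17, 22, 13 and 18 reads in wild-type control cells, so that its wild-type level rests on few reads. In CPM, the null control libraries lay above those of all vector groups, and replicate 4 of the R307W and GATA2 groups was at or below the highest wild-type control library. Nod2 was 4.75-fold higher in null control than in wild-type control cells (log2 2.25, SE 0.34, adjusted p = 2.95e-05). Relative to null control cells it fell by 0.98 on the log2 scale in T354M cells (SE 0.31, adjusted p = 0.0371) and by 1.07 in GATA2 cells (SE 0.32, adjusted p = 0.0237), and the difference of -0.81 in R307W cells was not called (SE 0.31, adjusted p = 0.0815), although DESeq2 (adjusted p = 0.0456) and limma on log2(TPM + 1) (0.0499) called it. The fit blocked by replicate number called the R307W difference too (-0.87, adjusted p = 0.00716), although the numbers are not taken to pair the libraries of that comparison. The call in GATA2 cells ended without null control replicate 1 (adjusted p = 0.0718), GATA2 replicate 2 (0.0544) or GATA2 replicate 4 (0.0958). The call in T354M cells ended without any of 6 libraries (null control replicates 1, 2 and 3 and T354M replicates 1, 3 and 4). Without replicate 4 of all groups the adjusted p was 0.025 for T354M and 0.015 for GATA2. Against wild-type control cells it was higher in R307W cells (log2 1.44, SE 0.34, adjusted p = 0.0029), T354M cells (log2 1.26, SE 0.34, adjusted p = 0.00662) and GATA2 cells (log2 1.18, SE 0.34, adjusted p = 0.0128, and 0.0525 in limma on log2(TPM + 1)).

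**Figure D3:**
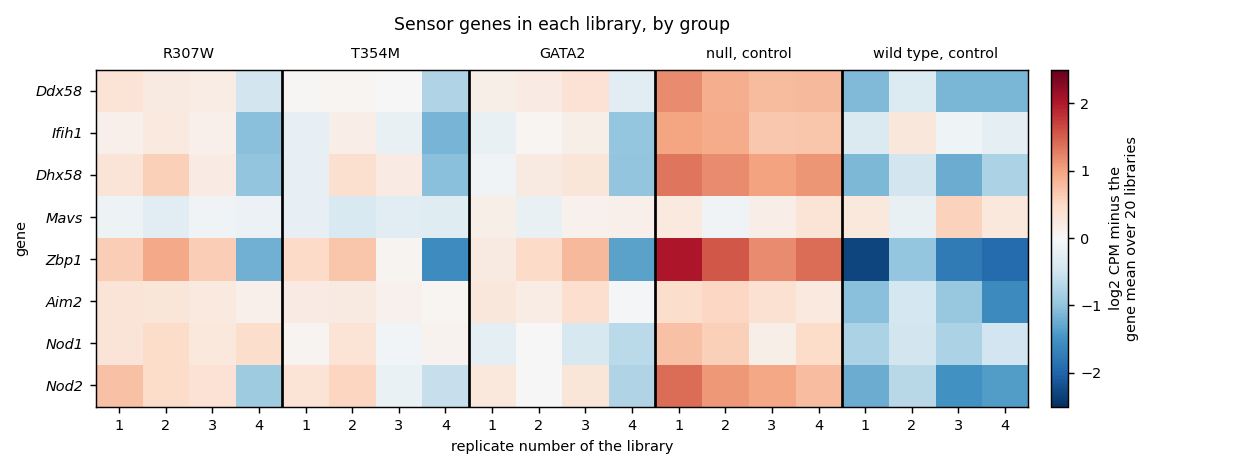
Log2 CPM of each sensor (rows) in each library (columns, by replicate number within group), minus the mean of that gene over the 20 libraries. Replicate 4 of the 3 vector groups is bluer than replicates 1 to 3 for Ddx58, Ifih1, Dhx58, Zbp1 and Nod2 and not for Mavs, while replicate 4 of the null control group lies above the gene mean for all 8 genes.

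The position of replicate 4 in the vector groups was shared by the interferon response and by monocyte and dendritic cell markers. In each vector group the lowest sum of these cell markers, given below, was that of replicate 4. For erythroid and for mast cell and basophil markers replicate 4 had the highest sum of each vector group. Part of this was not particular to the vector groups. For erythroid markers replicate 4 was also the highest in null control (373.2 TPM) and wild-type control cells (2776 TPM). For monocyte and macrophage markers it was also the lowest in null control cells (3069 TPM), but not in wild-type control cells, and for dendritic cell markers it was the lowest in neither control group. The summed level of 14 interferon-induced genes in replicate 4 was 92.4 TPM in R307W, 83.7 TPM in T354M and 80.8 TPM in GATA2 cells, against 160.6 to 249.6 TPM in replicates 1 to 3 of these groups. The sum was 311.1 to 455.9 TPM in null control cells and 65.9 to 113.6 TPM in wild-type control cells. Of the 14 genes 13 rose in null control against wild-type control cells (median log2 2.34), where 20.1% of all genes rose, and 6, 11 and 11 fell in R307W, T354M and GATA2 cells against null control cells, where 7.48%, 8.11% and 8.23% of all genes fell. Between null control and wild-type control cells most markers of monocytes and dendritic cells moved in the sensors' direction, and those of other myeloid cells did not. The summed level of 8 monocyte and macrophage markers was 548.4 to 2011 TPM in R307W, 799.4 to 2900 TPM in T354M, 453.8 to 1961 TPM in GATA2, 3069 to 3806 TPM in null control and 807.9 to 1943 TPM in wild-type control cells, and 7 of the 8 rose in null control against wild-type control cells. Of 8 dendritic cell markers 7 rose and 1 fell in the same comparison, and their sum was 45.2 to 130.8 TPM in R307W, 48.7 to 132.1 TPM in T354M, 47.6 to 152.0 TPM in GATA2, 195.2 to 293.6 TPM in null control and 27.0 to 34.2 TPM in wild-type control cells. No marker of these lists was at 0 in any group. In null control against wild-type control cells 4 of 6 neutrophil, 3 of 3 eosinophil, 6 of 6 mast cell and basophil and 7 of 7 erythroid markers fell and none rose, where 23.2% of all genes fell. The sum of the eosinophil markers was 1296 to 2622 TPM in R307W, 1011 to 5495 TPM in T354M, 1955 to 3410 TPM in GATA2, 2.84 to 8.07 TPM in null control and 503.8 to 855.5 TPM in wild-type control cells, and all 3 rose with each vector against null control cells. Of the mast cell and basophil markers 6, 5 and 6 rose in R307W, T354M and GATA2 cells against null control cells. Neutrophil markers had 1 rise and 3 falls in R307W cells, 2 rises in T354M cells and 4 falls in GATA2 cells, and erythroid markers 4 rises and 1 fall, 1 rise and 3 falls, and 4 rises and 1 fall. The part of these genes and cells in the sensors' differences was not tested.

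Over the 20 libraries the genes closest to each sensor were partly shared (Slfn8 and Gvin1) and otherwise different. They are given as Pearson correlations of log2 CPM and as a description, since the points share the group differences. Among the genes closest to Ddx58 were Slfn8 (0.972) and Gvin1 (0.972). Closest to Ifih1 were Herc6 (0.973), Gsap (0.972) and Rnf213 (0.970), and closest to Dhx58 were Parp12 (0.988), Csf1r (0.983) and Irf7 (0.983). Zbp1 was closest to Nlrc5 (0.991), Gvin1 (0.990) and Ms4a4c (0.989), and Nod2 to Slfn8 (0.978), Ifit1bl1 (0.978) and Mx1 (0.977). Aim2 was closest to Stk4 (0.978), Cd48 (0.972) and Glipr1 (0.972). Nod1 had lower top values, with Ugt1a7c (0.892), Rassf3 (0.881) and Cacnb2 (0.881), and Mavs the lowest, with Hdhd5 (0.833), Btg2 (0.782) and Ccnf (0.780). Among the 8 themselves Ddx58, Dhx58, Zbp1 and Nod2 had correlations of 0.939 to 0.970 with each other.

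Downstream of the RIG-I-like receptors, calls went in both directions. Of 26 regulators and signalling genes 10 rose and 2 fell in null control against wild-type control cells, where 20.1% of all genes rose and 23.2% fell. The median log2 difference was 0.17 against -0.05 over all genes tested. In either direction, the 12 calls are a share close to the 43.3% of all genes called. Without replicate 4, 7 rose and 2 fell, where 17.4% of all genes rose and 19.7% fell. Irf7, the interferon-induced transcription factor, averaged 71.8 ± 19.0 CPM in null control and 10.7 ± 4.0 CPM in wild-type control cells (SD, n = 4 each) and rose by log2 2.75 (SE 0.42, adjusted p = 2.99e-05). Tbk1, the kinase that phosphorylates IRF3, rose by 0.49 (SE 0.08, adjusted p = 7.23e-05), and Irf3 itself differed by 0.23 (SE 0.13, adjusted p = 0.164). The ubiquitin ligases Rnf135 and Rnf125, which both act on RIG-I, moved in opposite directions. Rnf135, which activates RIG-I, rose by 1.09 (SE 0.16, adjusted p = 1.8e-05), and Rnf125, which marks it for degradation, fell by 1.62 (SE 0.24, adjusted p = 2.56e-05). Rnf125 averaged 30.6 ± 6.3 CPM in R307W, 36.2 ± 10.2 CPM in T354M, 35.2 ± 7.9 CPM in GATA2, 6.25 ± 1.14 CPM in null control and 19.2 ± 5.3 CPM in wild-type control cells (SD, n = 4 each). It rose against null control cells by log2 2.29 (adjusted p = 4.42e-06) in R307W, 2.53 (adjusted p = 8.77e-07) in T354M and 2.5 (adjusted p = 2.55e-06) in GATA2 cells, and was also above wild-type control cells in all 3. Irf7 fell against null control cells by 1.16 in R307W cells (adjusted p = 0.0471), by 1.66 in T354M cells (adjusted p = 0.00744) and by 1.45 in GATA2 cells (adjusted p = 0.0152, and 0.0616 without GATA2 replicate 4). The call in R307W cells ended in limma on log2(TPM + 1) (adjusted p = 0.1), without replicate 4 of all groups (0.077) and without any of 6 single libraries (null control replicates 1, 2 and 4 and R307W replicates 1, 3 and 4, up to 0.149). No difference of Tbk1 or Irf3 from null control cells was called with any vector in the 20-library fit. Tbk1 was called in GATA2 cells with the 8 libraries alone (-0.16, adjusted p = 0.0494) and in all 3 groups with a replicate block in the 16 enhancer-null libraries (adjusted p = 0.014 in R307W, 0.00406 in T354M and 0.011 in GATA2 cells), and the sign for Irf3 in R307W and GATA2 cells varied between settings. In the whole list, 4 rose and 2 fell in R307W cells, 5 rose and 2 fell in T354M cells and 2 rose and 4 fell in GATA2 cells against null control cells, and the median was -0.03, -0.05 and 0.01. These totals of 6, 7 and 6 of 26 are near the 17.5%, 17.4% and 19.2% of all genes called. Without replicate 4 of all groups the totals called were 2 in R307W and 3 in GATA2 cells.

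Other cytosolic nucleic acid sensors and enzymes were mostly higher in the null control. Of 25 genes 14 rose and 1 fell in null control against wild-type control cells, with a median of 0.70, where 20.1% of all genes rose and 23.2% fell. Tmem173, encoding STING, the adaptor of the DNA sensor cGAS, averaged 36.2 ± 4.0 CPM in R307W, 36.6 ± 3.7 CPM in T354M, 37.4 ± 6.2 CPM in GATA2, 58.8 ± 2.4 CPM in null control and 12.8 ± 2.4 CPM in wild-type control cells (SD, n = 4 each). It rose by log2 2.20 in null control against wild-type control cells (SE 0.14, adjusted p = 9.49e-10). Against null control cells it fell by 0.70 (adjusted p = 0.00108) in R307W, 0.68 (adjusted p = 0.00131) in T354M and 0.65 (adjusted p = 0.00164) in GATA2 cells, and no single library ended these calls. Oas1g, of the family that makes the activator of RNase L, rose by 3.79 (SE 0.50, adjusted p = 5.85e-06) in null control cells, and its reads may be shared with near-identical Oas1 copies. Lrrfip1 rose by 0.94 (SE 0.11, adjusted p = 1.64e-06). In the whole list, which shares Oasl2 with the interferon-induced genes above, none rose and 8, 12 and 12 fell in R307W, T354M and GATA2 cells against null control cells, with medians of -0.51, -0.60 and -0.54, where 7.48%, 8.11% and 8.23% of all genes fell. Without replicate 4, 14 rose and 2 fell between the control groups, and 9, 11 and 11 fell with the vectors.

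Most genes of the inflammasome rose in null control against wild-type control cells, with 15 of 17 tested genes up, none down and a median of 1.22, where 20.1% of all genes rose. Casp1, the protease that matures interleukin 1 beta, averaged 35.1 ± 3.5 CPM in null control and 9.71 ± 4.01 CPM in wild-type control cells (SD, n = 4 each) and rose by log2 1.86 (SE 0.28, adjusted p = 2.74e-05). Pycard, encoding the adaptor ASC, rose by 1.34 (SE 0.12, adjusted p = 8.95e-08), Gsdmd, the pore-forming target of caspase 1, by 1.16 (SE 0.16, adjusted p = 7.91e-06), and Naip5, a flagellin sensor with near-identical copies, by 0.98 (SE 0.09, adjusted p = 9.78e-08). Against null control cells none of the list rose, and 6 fell in R307W, 5 in T354M and 6 in GATA2 cells, where 7.48%, 8.11% and 8.23% of all genes fell. In GATA2 cells Casp1 (-1.05, SE 0.27, adjusted p = 0.0113) and Gsdmd (-0.67, SE 0.15, adjusted p = 0.00545) fell while Aim2 was not called in the 20-library fit. Gsdmd was also called lower in R307W (adjusted p = 0.0442) and T354M cells (0.0283), and Casp1 in T354M cells (0.0315). Leaving out some single libraries ended those 3 calls. Pycard fell in R307W (adjusted p = 0.00636), T354M (0.0049) and GATA2 cells (0.0376). Its calls in R307W (0.0616) and GATA2 cells (0.252) ended without replicate 4 of all groups. Without replicate 4 of all groups 14 rose between the control groups, and 2 fell in R307W, 6 in T354M and 6 in GATA2 cells. Of 10 genes of ZBP1-linked cell death, 5 rose and none fell in null control against wild-type control cells (median 0.33), where 43.3% of all genes were called and 20.1% rose. Mlkl, the executioner of necroptosis, rose by 1.36 (SE 0.14, adjusted p = 4.33e-07), Casp8 by 1.12 (SE 0.11, adjusted p = 2.88e-07) and Ripk3, the kinase that ZBP1 engages, by 0.47 (SE 0.09, adjusted p = 0.000261). Of this list 0, 1 and 1 rose and 1, 1 and 2 fell in R307W, T354M and GATA2 cells against null control cells, which is about the 17.5%, 17.4% and 19.2% of all genes called, and without replicate 4 the totals called were 0, 1 and 0.

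Of 27 tested genes of NOD signalling, 14 rose and 2 fell in null control against wild-type control cells (median 0.24), where 20.1% of all genes rose and 23.2% fell. Ripk2, the kinase that NOD1 and NOD2 recruit, averaged 15.5 ± 0.6 CPM in null control and 7.51 ± 1.77 CPM in wild-type control cells (SD, n = 4 each) and rose by log2 1.05 (SE 0.15, adjusted p = 2.07e-05). Nfkb1, a subunit of NF-kB, rose by 0.92 (SE 0.08, adjusted p = 2.17e-08), and Birc3, a ubiquitin ligase of the RIPK2 complex, by 1.05 (SE 0.12, adjusted p = 1.04e-06). Tab3, an adaptor of the kinase TAK1, fell by 1.78 (SE 0.15, adjusted p = 4.57e-08). Against null control cells 2 rose and 4 fell in R307W, none rose and 8 fell in T354M and 3 rose and 7 fell in GATA2 cells, where 17.5%, 17.4% and 19.2% of all genes were called, and the R307W count is near that share. Without replicate 4, 13 rose and 1 fell between the control groups, and 4, 7 and 5 fell and 0, 0 and 2 rose with the vectors. Birc3 fell by 0.57 in T354M cells (SE 0.12, adjusted p = 0.00246, and 0.11 in limma on log2(TPM + 1)), and Tab3 rose by 0.70 in GATA2 cells (SE 0.15, adjusted p = 0.00339). Tab3 also rose in R307W cells, by 0.55 (SE 0.15, adjusted p = 0.0183, and 0.12 without replicate 4 of all groups).

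**Figure D4:**
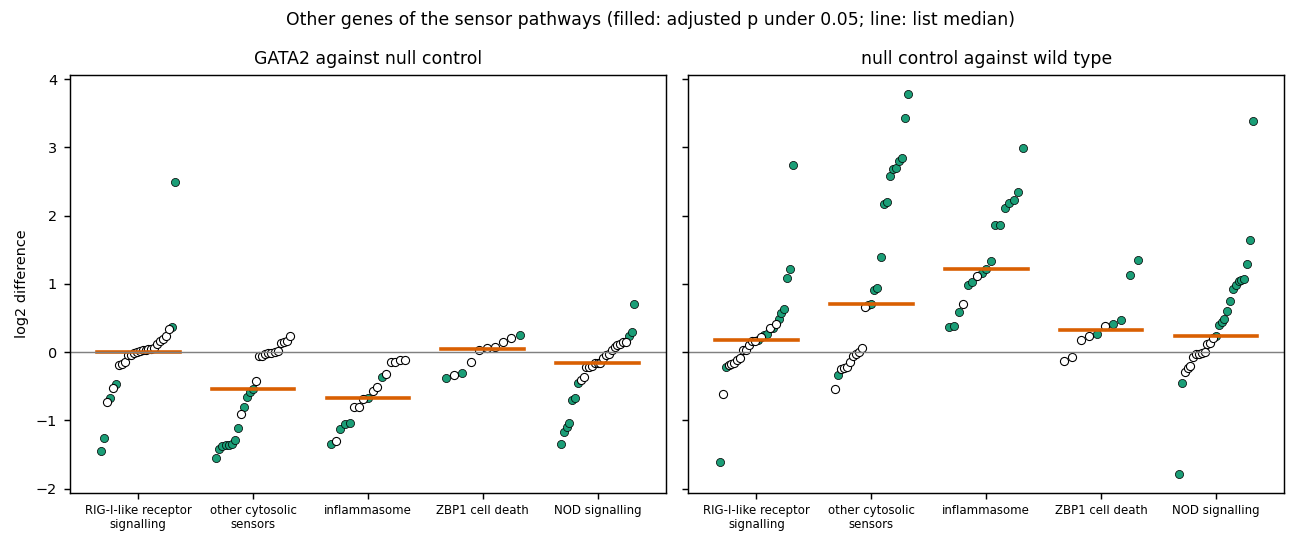
Log2 differences (vertical axis) of the tested genes of 5 lists (horizontal axis) in GATA2 against null control cells (left) and null control against wild-type control cells (right), with filled points at an adjusted p under 0.05 and a line at the list's median. The medians lie above 0 for all 5 lists on the right, with the inflammasome list highest at 1.22, and the high point of the first list on the left is Rnf125.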

How the data were processed

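Total RNA of 20 libraries, 4 in each of 5 groups taken from the labels, was sequenced after NuGEN Ovation library preparation, per the labels. The submitters' processing notes name STAR 2.5.2b, RSEM 1.3.0 and the genome build mm10. Each deposited table gives expected counts per gene that the authors estimated, TPM scaled by the authors for length and depth, and FPKM, which were not used. Gene symbols and positions come from GENCODE M21 and matched 53274 of 53379 identifiers, and the other 105 held at most 0.0148% of a library's counts. Expected counts were rounded and fitted with edgeR 4.0.16 (R 4.3.3) with filterByExpr (15835 genes kept), TMM scaling and the quasi-likelihood test on 5 group means, with Benjamini-Hochberg adjustment over all genes and a threshold of 0.05. Fold changes are the first-named group over the second. Library totals of 22330475 to 33245876 left Nod2 with 13 to 22 reads in wild-type control libraries, and counting error is largest there. The procedure was tested on simulated data.

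The alternatives were DESeq2 1.42.0, DESeq2 size factors, limma 3.58.1 on log2(TPM + 1) (which understates the change of low genes), no filter, the 8 libraries of a comparison alone, each library or replicate 4 of all groups left out, and a block for the replicate number. The numbers were taken to pair the libraries where same-numbered libraries deviated together with a correlation above 0.1 in every pair. That held for GATA2 against null control (0.124 to 0.300), R307W against GATA2 (0.219 to 0.623), T354M against GATA2 (0.159 to 0.551) and R307W against T354M (0.204 to 0.667). The block was fitted to all 20 libraries at once, so its replicate effects are shared with groups for which this did not hold. The genes and gene lists were chosen with earlier results of these data known. Named beside the 8 are Gata2, the 3 genes of each list with the lowest adjusted p between the control groups, and Ripk2, Pycard, Casp1, Ripk3, Mlkl, Tbk1, Irf3 and Irf7 whatever their values. The genes named as most alike are the 3 with the highest correlation among genes averaging at least 5 CPM. For Ddx58, 1 of these 3 is not reported here. No RefSeq window was used for Zbp1 and Dhx58.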

Additional observations from a re-analysis of the deposited data

Results flagged for a closer look

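Single libraries stood apart from the other 3 of their group in 5 of 50 groups of values checked, by a gap to the nearest library above Dixon's critical share of the group's range, where chance gives about 1 in 20. Ddx58 in T354M cells was lowest in replicate 4 (25.97 CPM, the nearest 43.4 CPM) and in wild-type control cells highest in replicate 2 (34.16 CPM, the nearest 20.1 CPM). Ifih1 in R307W cells was lowest in replicate 4 (18.48 CPM, the nearest 41.4 CPM). Mavs in GATA2 cells was lowest in replicate 2 (18.83 CPM, the nearest 22.9 CPM). The summed level of the 14 interferon-induced genes in wild-type control cells was highest in replicate 2 (113.6 TPM, the nearest 73.6 TPM), the library in which Ddx58 was also highest. The response of Nod1 to the vectors differed between R307W and GATA2 cells by 0.688 on the log2 scale in the direct test (adjusted p = 0.0175).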

How the results depend on the processing

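For single genes, 1096 results under other settings kept their direction and side of the threshold, 45 lost and 66 gained a call and 21 changed sign, and with single libraries left out these numbers were 1108, 118, 12 and 42. Every call of a sensor between the control groups held in each of these settings. Members called in R307W against null control cells numbered 6 with the replicate block, 6 with the replicate block in the 16 enhancer-null libraries (a setting chosen after seeing the data) and 5 with DESeq2. The same-numbered libraries of that comparison correlated from 0.019 to 0.311, so the numbers are not taken to pair them. In T354M against GATA2 cells both blocks called 2 members. In R307W against GATA2 cells 0 members were called with the 8 libraries alone, with limma and without replicate 4, and in GATA2 against null control cells limma called 3.

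Genes called moved by over 1.5 times as follows. In R307W against GATA2 cells there were 441 with the replicate block, 117 with the 8 libraries alone, 430 with DESeq2, 162 without replicate 4 and 637 with the 16-library replicate block. In R307W against T354M cells there were 888, 250, 316 and 1319 for the block, 8 libraries, no replicate 4 and 16-library block, and 360 in limma. In T354M against null control cells limma gave 1831. Without replicate 4 of all groups there were 1509 in R307W, 1681 in T354M and 1996 in GATA2 against null control cells and 1013 in T354M against GATA2 cells. The 16-library block gave 5341, 4984, 5258 and 2893 for the same comparisons. Without replicate 4, the RIG-I-like receptor list had 2 called in R307W and 3 in GATA2 cells, the inflammasome list 2 in R307W cells, and the ZBP1 list 0 in R307W, 1 in T354M and 0 in GATA2 cells, all against null control cells.

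With single libraries left out, genes called ranged from 1276 to 2976 in R307W, 1401 to 3074 in T354M and 1574 to 3393 in GATA2 against null control cells, from 126 to 376 in R307W and 979 to 1679 in T354M against GATA2 cells, and from 282 to 573 in R307W against T354M cells. Members called ranged from 0 to 3 in R307W, 3 to 7 in T354M and 1 to 6 in GATA2 against null control cells, and from 0 to 1 in R307W and 0 to 2 in T354M against GATA2 cells.

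None of the log2 differences that changed sign had been called. In limma they were Mavs in null control against wild-type control cells (0.03), Ddx58 in R307W (0.082), Ifih1 in T354M (0.014) and Aim2 in T354M (0.05) against GATA2 cells, and Irf3 in R307W (0.011) and GATA2 (0.002), and Nfkb1 in R307W (0.028) and T354M (0.016) against null control cells. Without replicate 4 they were Ddx58 (0.021) and Aim2 (-0.001) in R307W against GATA2 cells, and Ifih1 in GATA2 against wild-type control cells (0.048). Ifih1 in R307W against wild-type control cells was -0.034 with the replicate block. Naip5 in R307W against null control cells was -0.023 with DESeq2 and its size factors, -0.022 without replicate 4, -0.003 with the 8 libraries and -0.02 with the 16-library block. Irf3 in GATA2 against null control cells was 0.008 without a filter, 0.003 with the block, 0.001 with the 8 libraries and 0.039 without replicate 4.

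With single libraries left out, values in R307W against GATA2 cells ran from -0.041 to 0.097 for Aim2, -0.128 to 0.131 for Ddx58, -0.013 to 0.446 for Dhx58, -0.064 to 0.35 for Ifih1 and -0.092 to 0.498 for Zbp1. In R307W against T354M cells they ran from -0.002 to 0.458 for Dhx58 and -0.008 to 0.431 for Nod2. In T354M against GATA2 cells they ran from -0.228 to 0.193 for Dhx58, -0.292 to 0.103 for Ifih1, -0.116 to 0.238 for Nod2 and -0.396 to 0.18 for Zbp1. Against wild-type control cells Ifih1 ran from -0.065 to 0.259 in R307W, -0.349 to 0.045 in T354M and -0.178 to 0.1 in GATA2 cells, and Mavs in null control cells from -0.171 to 0.078. Against null control cells Irf3 ran from -0.102 to 0.079 in R307W and -0.089 to 0.088 in GATA2 cells, and Naip5 from -0.038 to 0.046 in R307W cells. The cause of these changes was not tested.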
